A study of Homo sapiens with 4 samples.

Results

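The NEDD4 family of HECT ubiquitin ligases was examined in NCI-H838, a line of human lung cancer cells of the non-small-cell kind, with and without induced disruption of MIB1. The 9 members (NEDD4, NEDD4L, ITCH, SMURF1, SMURF2, WWP1, WWP2, HECW1 and HECW2) were taken by name among 58302 genes, and each matched 1 identifier of the count table. All groups carried a transposon construct of the same design, in which doxycycline (dox) switches on Cas9 beside a MIB1 guide RNA. These MIB1-iKO cells were grown from single-cell clones. RNA was sequenced from 2 samples without dox and from 2 samples given 0.5 μg/mL dox, all at day 3. The labels do not say which guide or clone was used, and none of the samples used here received dox without a MIB1 guide, so that dox, Cas9 and MIB1 loss cannot be told apart.

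HECT ligases take ubiquitin from an E2 enzyme onto a cysteine of their own HECT domain and pass it from there to the substrate. The NEDD4 family is known for a membrane-binding C2 domain and for WW domains, which hold proline-rich PY motifs of substrates and adaptors. SMURF1 and SMURF2 are textbook regulators of the BMP and TGF-β pathway, where they are brought to the receptors by the inhibitory SMADs. MIB1 belongs to another class, the RING ligases. The comparison of these 9 genes addressed whether transcripts of the ligases already linked to BMP receptors shift when MIB1 is lost.

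The stretch of coding sequence around the catalytic cysteine is shown because it holds the residue that carries the ubiquitin and bears on whether reads of 50 bases can tell the members apart. The sequences were read from the GENCODE release 44 transcripts, 33 bases for each of 8 members, with WWP1 not shown, 5′ to 3′ on the coding strand, with the cysteine codon in capitals.
NEDD4: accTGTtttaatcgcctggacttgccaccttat
NEDD4L: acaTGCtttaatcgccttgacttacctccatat
ITCH: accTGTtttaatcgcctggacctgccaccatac
WWP2: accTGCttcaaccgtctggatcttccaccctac
SMURF1: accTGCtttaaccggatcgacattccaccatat
SMURF2: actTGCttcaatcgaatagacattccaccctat
HECW1: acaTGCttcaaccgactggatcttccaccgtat
HECW2: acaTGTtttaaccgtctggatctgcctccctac

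The 8 printed windows differed from each other at between 3 bases, for NEDD4 and ITCH, and 12 bases, for SMURF2 and HECW2. Over whole transcripts, 0 of the 50-base stretches of any member were identical to a stretch of another member on either strand. Reads of the 9 genes were thus separable at exact matches. Stretches with mismatches, of which the alignment allowed 2, were not searched. Of the stretches of a member, between 0% for WWP2 and 23.2% for ITCH were also held by some gene outside the family.

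In NEDD4, NEDD4L, ITCH, WWP2, SMURF1 and SMURF2 the window runs over an exon junction that falls after its base 5, inside the cysteine codon, and the same holds for WWP1. In HECW1 and HECW2 it lies within 1 coding exon. The windows with their introns occupy chr15:55829972-55830518 on the minus strand for NEDD4, chr18:58391555-58396194 on the plus strand for NEDD4L, chr20:34504399-34507722 on the plus strand for ITCH and chr16:69939409-69939868 on the plus strand for WWP2. SMURF1 holds it at chr7:99030656-99033041 and SMURF2 at chr17:64545920-64546267, both on the minus strand. HECW1 holds it at chr7:43561822-43561854 on the plus strand and HECW2 at chr2:196201349-196201381 on the minus strand. All positions are on GRCh38.

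The coded proteins ran from 731 residues for SMURF1 to 1606 for HECW1. Over their last 350 residues, which hold the HECT domain, HECW1 and HECW2 were 91.7% identical, SMURF1 and SMURF2 86.7%, NEDD4 and NEDD4L 84.6%, and WWP1 and WWP2 83.7%. ITCH was nearest to WWP1, at 82.9%. ITCH and WWP2 shared 78.6%, and the pairs not named here lay between 49.4% and 57.4%.

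The reads counted over all genes numbered between 15943025 and 24398411 in a library, fewer in both dox libraries. MIB1 itself had 598 and 588 reads without dox, against 90 and 59 with dox, a log2 change of -2.58 (limma, SE 0.23, adjusted p = 0.000375). The epithelial markers EPCAM, KRT8, KRT18, KRT7 and CDH1 were present, KRT19 was listed at 0 in each library, and the 6 genes summed to between 103 and 125 RPKM. The sum was lower in both dox libraries through KRT8 (22.1 and 23.0 RPKM without dox, against 17.9 and 17.0 with dox) and KRT18 (48.1 and 55.7 without dox, against 35.9 and 40.3 with dox), while EPCAM, KRT7 and CDH1 were higher in both. RPKM is the authors' measure of reads per gene model length and library depth. The 8 markers of leukocytes, endothelium and fibroblasts summed to between 0.321 and 0.875 RPKM, with PTPRC and CD68 at 0. The part of depth and of these markers in the values that follow was not tested. In a bulk sample fewer cells of a type and less RNA per cell cannot be told apart. By exact permutation, two-sided, 2 samples against 2 allow no p below 0.333, so p-values are from limma's moderated test on all 16181 genes with enough reads. The study describes the samples as biological replicates. The labels do not say whether they were separate cultures, and if they were not, these p-values measure only technical spread.

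All 9 members were detected in each library, with mean levels from 0.218 to 10.99 RPKM, and all 9 passed the filter on low counts. ITCH, a ligase known for marking JUN proteins in immune cells, had the highest level. Its RPKM was 10.8 and 11.04 in no dox replicates 1 and 2 and 9.99 and 12.2 in dox replicates 1 and 2. Each of these values lay above every value of the other members, the next being 7.22 RPKM, for SMURF2 in dox replicate 1. By its mean level ITCH stood above 82.3% of all genes with at least 1 read.

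SMURF2, WWP1, NEDD4 and WWP2 followed as a group with mean levels of 6.81, 6.32, 5.96 and 5.93 RPKM. All their values fell between 5.42 and 7.22 RPKM, and neighbours in this order overlapped in their ranges. SMURF2 was above NEDD4 and above WWP2 in each library, while in the other pairs of these 4 genes the order differed between libraries. NEDD4L and SMURF1 came next with 2.65 and 2.00 RPKM on average. NEDD4L was the higher of the pair in each library, although their ranges over the 4 libraries overlapped. HECW2 (0.943 RPKM) and HECW1 (0.218 RPKM), ligases known mainly from neurons, were lowest, and neither overlapped its neighbour.

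**Figure D1:**
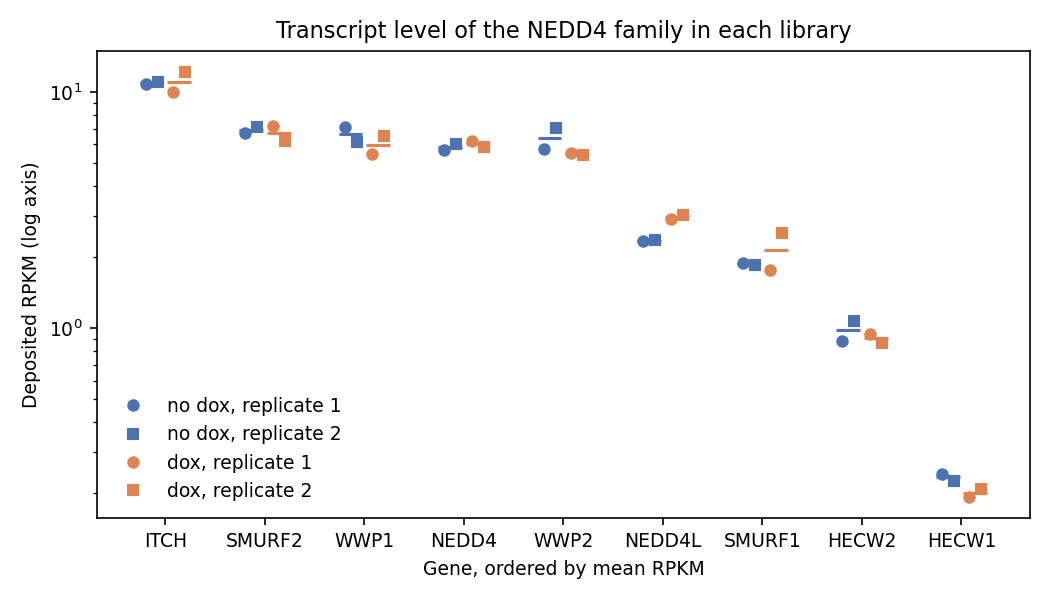
Deposited RPKM (log axis) of the 9 NEDD4 family genes, ordered by mean RPKM, with 1 point for each library (circles replicate 1, squares replicate 2) and lines at the means of the no dox and dox groups (n = 2 each). ITCH lies above all others in each library, SMURF2, WWP1, NEDD4 and WWP2 overlap, and HECW1 is lowest at 0.193 to 0.242 RPKM.

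This order rests in part on the gene lengths behind the RPKM. Within a library the deposited counts and RPKM imply a length for each gene, which was 2810 bases for SMURF2 if no dox replicate 1 was scaled by its total count. The annotated exons of SMURF2 cover 7213 bases, and its reference transcript has 6240. For NEDD4L the implied length was 10980 bases against 34097 of annotated exons, and for SMURF1 it was 5528 against 6282. When reads were scaled per kilobase of all annotated exons, SMURF2 moved from the second to the fifth place, with a mean of 2.65, below WWP2 at 4.17 and with ranges that no longer overlapped. NEDD4L (0.854) then stood below SMURF1 (1.76), in the reverse of their order by RPKM. ITCH kept the first place at 5.57, but NEDD4 at 4.90 now overlapped it. HECW2 and HECW1 remained the lowest. The reads here were still the deposited counts, so any annotated exon outside the authors' gene models added length but no reads. Genes with implied lengths far below their annotated exons, such as SMURF2 and NEDD4L, fell the most through the scaling itself. Which of the orders lies nearer to the transcript levels was not tested. Calls from the fits on counts do not depend on the gene lengths, because a length is the same in each library. The alternative fits on log2(RPKM + 0.1) and log2(RPKM + 1) do depend on them, through the added constant, and called no member either.

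**Figure D2:**
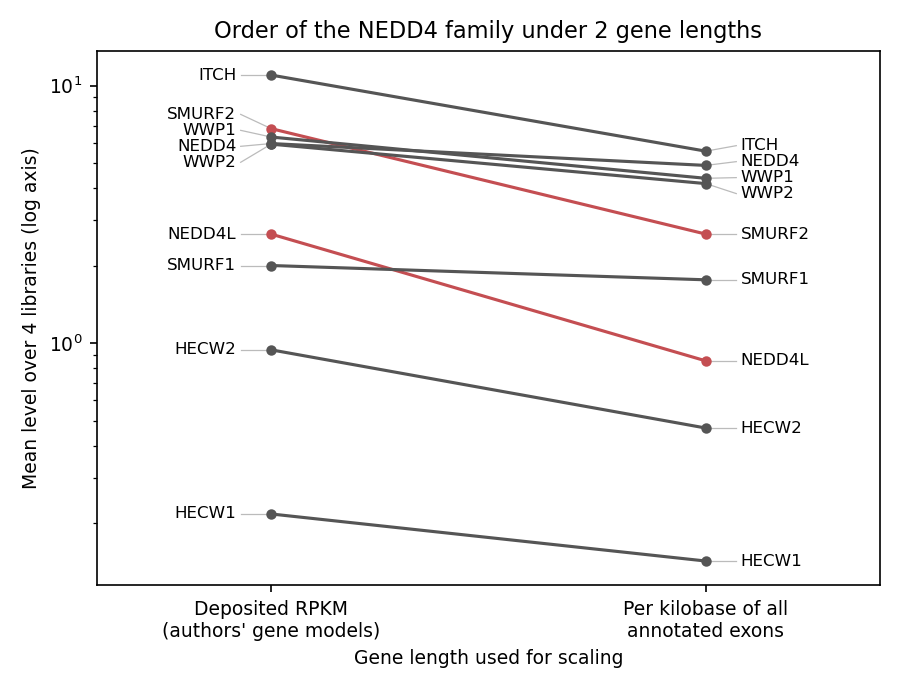
Mean level of each NEDD4 family gene over the 4 libraries (log axis) as deposited RPKM and per kilobase of all annotated exons, joined by lines. SMURF2 and NEDD4L, drawn in red, fall the most, from 6.81 to 2.65 and from 2.65 to 0.854. Both scales use the deposited counts, so these falls reflect the gene lengths alone.

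Summed over the 9 genes, the family stood at 41.4 and 42.9 RPKM without dox and at 40.2 and 42.8 RPKM with dox. The mean was 42.2 ± 1.06 (SD, n = 2) in the no dox group, against 41.5 ± 1.85 (SD, n = 2) in the dox group, 0.984 of the former, and the groups overlapped. ITCH made up between 24.9% and 28.4% of this sum, the largest share in each library. SMURF2 took between 14.5% and 18.0%, and SMURF1 between 4.30% and 5.88%. Like the order, the sum and these shares rest in part on the gene lengths behind the RPKM. The share of NEDD4L was 5.65% and 5.50% without dox and 7.19% and 7.07% with dox. Both dox libraries were higher.

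**Figure D3:**
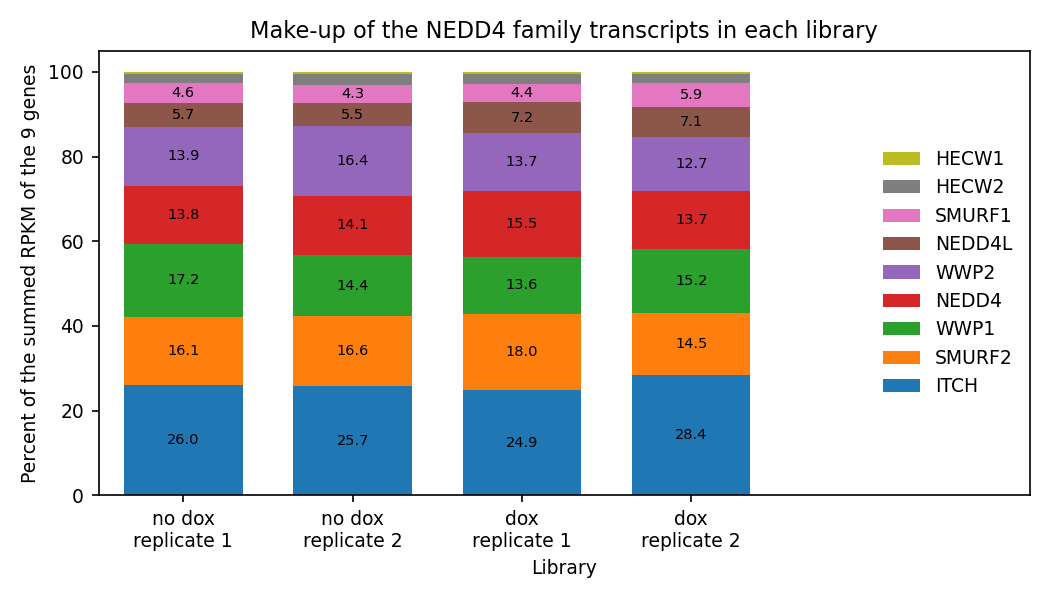
Percent of the summed RPKM of the 9 genes taken by each gene in each library, as stacked bars that reach 100, with shares above 4% printed. The make-up is similar in the 4 libraries, and NEDD4L moves from 5.65% and 5.50% without dox to 7.19% and 7.07% with dox. The shares rest in part on the gene lengths behind the RPKM.

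The comparison of dox with no dox was then made for each gene. None of the 9 members was called by the rule used here, at least 2-fold with the adjusted p no higher than 0.05, which called 0.0371% of all genes tested (limma). The same count of 0 was obtained with edgeR and DESeq2. At an unadjusted p under 0.05 there was 1 member, NEDD4L, and thus 11.1% of the members against 9.28% of all genes. The groups did not overlap in normalized log2 CPM for 3 members, NEDD4L, WWP2 and HECW1, which is 33.3% against 38.6% of all genes. Normalized log2 CPM are reads scaled to library depth, on a log scale, and then quantile-normalized across the libraries. The log2 changes of the members lay between -0.25 and 0.35, with a median of -0.02, where the median of all genes was -0.000418. Their median absolute log2 change was 0.121, and that of all genes 0.160. The 95% interval of each of the 9 fold changes excluded a 2-fold change in either direction. These intervals are not adjusted for the number of genes.

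**Figure D4:**
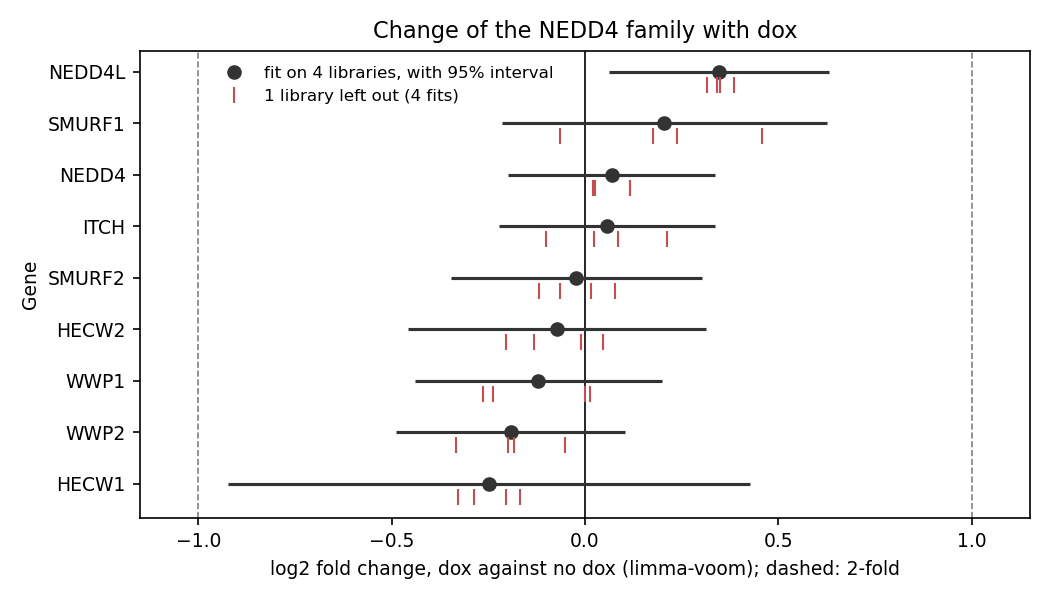
log2 change of dox against no dox for each NEDD4 family gene (limma-voom, black points with 95% intervals, 2 libraries in each group) and the same value with 1 library left out (red ticks). Dashed lines mark 2-fold. NEDD4L, at 0.35, is the member whose interval lies above 0, and all 9 intervals lie inside the dashed lines.

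NEDD4L (ENSG00000049759, chr18:58044226-58401540, plus strand) is known for removing the epithelial sodium channel from the cell surface and for marking activated SMAD2 and SMAD3. Its reads numbered 627 and 589 without dox, against 502 and 625 with dox, from the smaller dox libraries. Its RPKM was 2.34 and 2.36 without dox, against 2.89 and 3.02 with dox. Both dox libraries were higher than both no dox libraries, and replicates lay close together. The mean was 2.35 ± 0.0140 RPKM (SD, n = 2) in the no dox group, against 2.96 ± 0.0958 RPKM (SD, n = 2) in the dox group, which is 1.26 times as high. In the fit the log2 change was 0.35 (limma, SE 0.13, adjusted p = 0.437), with a 95% interval from 0.06 to 0.63. A change as large or larger in either direction, whatever its SE, was seen in 20.7% of all genes tested. Ranked by unadjusted p (limma), NEDD4L stood at place 744 of 16181 genes, and in this fit the value did not pass the correction. With 1 library left out it stayed between 0.32 and 0.38. Opposite-strand transcripts overlap 2.42% and 0.519% of its exons.

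NEDD4 (ENSG00000069869, chr15:55826922-55993660, minus strand), which gave the family its name and acts on growth factor receptors and membrane proteins, had 1035 and 1022 reads without dox, against 733 and 818 with dox. Its RPKM was 5.71 and 6.05 without dox, against 6.23 and 5.85 with dox. The groups overlapped. Its log2 change was 0.07 (limma, SE 0.13, adjusted p = 0.909), with an interval from 0.871-fold to 1.26-fold. The nearest paralogs NEDD4 and NEDD4L thus had different values, but the difference between their changes was not tested.

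SMURF1 (ENSG00000198742, chr7:99027440-99144108, minus strand) is known for marking SMAD1, SMAD5 and BMP receptors for degradation. Its reads numbered 255 and 232 without dox, against 154 and 262 with dox. Its RPKM was 1.89 and 1.85 without dox, against 1.76 and 2.52 with dox. Dox replicate 1 was the lowest of the 4 libraries and dox replicate 2 the highest. The mean was 1.87 ± 0.0312 RPKM (SD, n = 2) in the no dox group, against 2.14 ± 0.536 RPKM (SD, n = 2) in the dox group. The log2 change of 0.20 (limma, SE 0.20, adjusted p = 0.797) turned to -0.06 when dox replicate 2 was left out, and was 0.46 without dox replicate 1. Exons of TRRAP on the opposite strand overlap 11.7% of its exon bases, and no source states that strand was used in counting. TRRAP had between 32 and 47 reads in the libraries.

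SMURF2 (ENSG00000108854, chr17:64542282-64662307, minus strand), the paralog known for bringing TGF-β receptors to degradation with SMAD7, had 458 and 455 reads without dox, against 321 and 329 with dox. Its RPKM was 6.68 and 7.12 without dox, against 7.22 and 6.22 with dox, and both the lowest and the highest value came from dox libraries. On the log2 scale the change was -0.02 (limma, SE 0.15, adjusted p = 0.980), with an interval from 0.787-fold to 1.23-fold. In the no dox libraries SMURF2 had more RPKM than SMURF1 in both replicates, and the same held with dox.

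ITCH (ENSG00000078747, chr20:34363235-34511773, plus strand) had 1652 and 1576 reads without dox, against 993 and 1439 with dox. Its 2 dox libraries were the lowest and the highest in RPKM. The mean was 10.9 ± 0.184 RPKM (SD, n = 2) in the no dox group, against 11.1 ± 1.54 RPKM (SD, n = 2) in the dox group. Its change on the log2 scale was 0.06 (limma, SE 0.13, adjusted p = 0.932), and its sign was not fixed, since it was -0.10 without dox replicate 2 and 0.21 without dox replicate 1. An overlapping same-strand gene model covers 23.4% of its exon bases in GENCODE release 44. The genes whose normalized log2 CPM, centred on their mean, lay nearest to ITCH over the 4 libraries were SRSF4, INTS13 and VPS33B, with Euclidean distances of 0.0168, 0.0179 and 0.0200 among 12343 genes averaging 50 reads or more. With 4 libraries such closeness is a description only.

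WWP1 (ENSG00000123124, chr8:86342547-86478420, plus strand) is known for acting on KLF5 and other transcription factors. It had 785 and 633 reads without dox, against 389 and 554 with dox. Its RPKM was 7.13 and 6.17 without dox, against 5.45 and 6.52 with dox. The groups overlapped, and the replicates differed more than the group means. In log2 terms it stood at -0.12 (limma, SE 0.15, adjusted p = 0.856), and it was 0.01 without dox replicate 1.

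WWP2 (ENSG00000198373, chr16:69762328-69941741, plus strand), known for acting on the stem cell factor POU5F1, had 889 and 1008 reads without dox, against 551 and 645 with dox. Its RPKM was 5.76 and 7.02 without dox, against 5.51 and 5.42 with dox. The groups did not overlap, but the gap between no dox replicate 1 and dox replicate 1 was smaller than that between the no dox replicates. Its fitted log2 change was -0.19 (limma, SE 0.14, adjusted p = 0.712), with an interval from 0.713-fold to 1.07-fold. It was -0.05 without no dox replicate 2. WWP2 shared 0 of its 50-base stretches with any other annotated gene.

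HECW1 (ENSG00000002746, chr7:43112629-43566001, plus strand) rested on few reads, 54 and 47 without dox, against 28 and 36 with dox. Its RPKM was 0.242 and 0.226 without dox, against 0.193 and 0.209 with dox, and the groups did not overlap. On the log2 scale the change was -0.25 (limma, SE 0.32, adjusted p = 0.863), with the widest interval of the family, from 0.527-fold to 1.35-fold. HECW2 (ENSG00000138411, chr2:196189099-196593684, minus strand), known for marking the p53 relative p73, had 254 and 288 reads without dox, against 176 and 192 with dox. Its RPKM was 0.885 and 1.08 without dox, against 0.945 and 0.867 with dox, and the groups overlapped. Its change on the log2 scale was -0.07 (limma, SE 0.18, adjusted p = 0.936), and it was 0.05 without no dox replicate 2.

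The genes that work with the family were then compared through lists, beginning with 19 adaptors and regulators, which bring the ligases to membranes and receptors or switch them on and off. Of these, 18 were tested (all but LDLRAD4), 0 were called, and their median log2 change was 0.01. At an unadjusted p under 0.05 there was 1, or 5.56% against 9.28% of all genes. This gene was SMAD6, an inhibitory SMAD that binds SMURF1 and is itself a BMP target. It had 29 and 41 reads without dox, against 46 and 43 with dox, and a log2 change of 0.77 (limma, SE 0.34, adjusted p = 0.503). ARRDC3, an arrestin-like adaptor with PY motifs, had 44.3 and 42.6 RPKM without dox, against 47.3 and 49.2 with dox, a log2 change of 0.17 (limma, SE 0.11, adjusted p = 0.685). NDFIP2, a membrane protein that recruits and activates the ligases, was abundant at 97.4 and 80.4 RPKM without dox, against 93.2 and 67.8 with dox. Its log2 change was -0.15 (limma, SE 0.11, adjusted p = 0.727). LAPTM5, a lysosomal protein that binds NEDD4, had between 10 and 29 reads in a library and a log2 change of -0.35 (limma, SE 0.46, adjusted p = 0.864).

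All 6 E2 enzymes, which load the HECT cysteine with ubiquitin, were tested, and 0 were called. At an unadjusted p under 0.05 (limma) there was 1, UBE2L6, or 16.7% against 9.28% of all genes. The groups did not overlap in normalized log2 CPM for 2 of the 6, or 33.3% against 38.6% of all genes. UBE2L6, an E2 also known from the interferon response, where it serves ISG15, had 104 and 112 RPKM without dox, against 133 and 129 with dox. Its groups did not overlap, and its log2 change was 0.29 (limma, SE 0.11, adjusted p = 0.444). UBE2L3, a main E2 of HECT ligases, had 30.3 and 28.8 RPKM without dox, against 26.9 and 23.3 with dox, a log2 change of -0.21 (limma, SE 0.12, adjusted p = 0.626). UBE2D1 (0.11) and UBE2D3 (-0.03) had smaller log2 changes. The median of the 6 was -0.000883.

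Of 37 genes whose proteins are reported substrates, 26 were tested and 0 were called. Their median log2 change was 0.02, and 5 had an unadjusted p under 0.05, 3 of them with higher and 2 with lower values with dox, or 19.2% against 9.28% of all genes. The groups did not overlap in normalized log2 CPM for 11 of the 26, or 42.3% against 38.6% of all genes. JUNB, an AP-1 protein marked by ITCH, had the smallest p. Its level was 91.4 and 102 RPKM without dox, against 121 and 135 with dox, and the groups did not overlap. Its log2 change was 0.42 (limma, SE 0.13, adjusted p = 0.309). JUN had 57 and 49 reads without dox, against 58 and 74 with dox from smaller libraries, a log2 change of 0.73 (limma, SE 0.27, adjusted p = 0.411). KLF5, an epithelial transcription factor acted on by WWP1, had 16.0 and 18.0 RPKM without dox, against 12.1 and 14.7 with dox, a log2 change of -0.31 (limma, SE 0.13, adjusted p = 0.509). SLC11A2, an iron transporter acted on by WWP2, had 12.5 and 10.7 RPKM without dox, against 9.86 and 8.92 with dox, a log2 change of -0.26 (limma, SE 0.12, adjusted p = 0.535). None of the 26 passed the correction in the main limma fit.

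All 7 deubiquitinases that oppose the family or act on the same receptors were tested, and 0 were called or had an unadjusted p under 0.05. Their log2 changes lay between -0.08, for UCHL5, and 0.14, for USP9X, which stabilizes SMURF1 and ITCH. USP9X had 4.29 and 5.49 RPKM without dox, against 5.02 and 5.42 with dox. USP11 (0.08) and OTUB1 (-0.04) lay between them.

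**Figure D5:**
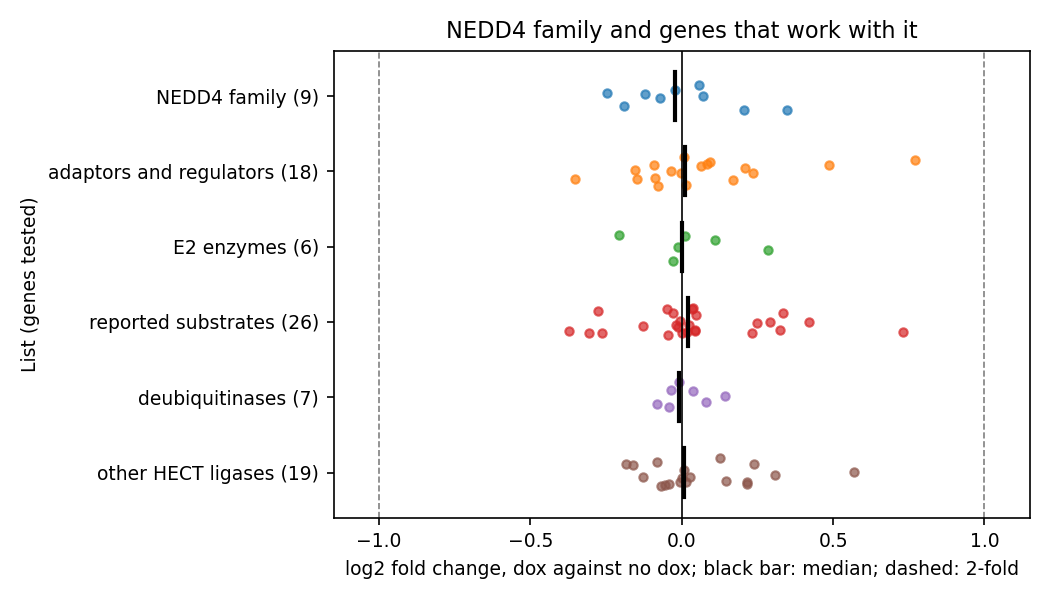
log2 change of dox against no dox (limma-voom) for each gene tested of the NEDD4 family and of 5 lists of genes around it, with black bars at the medians and dashed lines at 2-fold. The medians lie between -0.02 and 0.02, and no gene of any list reaches the dashed lines.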

How the data were processed

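After removal of ribosomal reads the authors used GSNAP for alignment (GRCh38) and HTSeqGenie for counting over exons, and the deposited counts are whole reads per gene, not normalized. The authors' methods name a RefSeq annotation, while the identifiers are from Ensembl. The authors' RPKM values are counts scaled by gene model length and depth, with a further scaling per library. Reads were single-end of 50 bases, and which of the library kits in the methods was used here is not given in the sources used here. Identifiers were matched by GENCODE release 44 (57532 of 58302 had a symbol). The members and lists were chosen with earlier results of these data known, and the lists were typed from memory. Genes with low counts were removed with filterByExpr, a step the study's methods do not mention. As in those methods, counts were then divided by library totals, quantile-normalized, weighted with voom and compared with limma 3.58.1 (R 4.3.3), with adjustment by Benjamini-Hochberg over all genes tested. Alternatives were edgeR 4.0.16, DESeq2 1.42.0, other scalings and filters, log2(RPKM + 0.1) and log2(RPKM + 1), a replicate term and leaving out each library. All members are named, and from each other list the called genes, or else the 2 with the smallest p in each direction. The main fit was tested on simulated data, and the alternatives were not. Among genes averaging 50 reads or more, 100 of 100 changed 4-fold and 94 of 100 changed 2-fold passed the adjusted p (limma). So did 13 unchanged genes. The 2-fold rule was not applied in these counts. The genes changed 2-fold had a median absolute log2 change of 0.996, so the median gene among them fell short of that rule. HECW1 averaged 41.25 reads, below the genes changed in the simulation. Identities are from global alignment with BLOSUM62. Reads can be PCR copies and are not independent molecules.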

Additional observations from a re-analysis of the deposited data

How the results depend on the processing

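The count of NEDD4 family genes called was 0 under each alternative, and so was that of each other list. Over all genes, where 6 were called, the count was 0 with no filter on low counts (2092 genes at an unadjusted p under 0.05), 0 on log2(RPKM + 0.1) (1442) and 0 on log2(RPKM + 1) (1438), and 11 with no fold threshold. It was 0 with any 1 library left out, where the lone sample of a group was assumed to vary like the others. Replicate numbers recur in both groups, with no label saying that they mark a shared culture or batch. Deviations of same-numbered libraries correlated at 0.134 across genes, and with the replicate block 78 genes were called. With no fold threshold, 1154 of the 16181 genes tested had an adjusted p no higher than 0.05 in that limma fit. NEDD4L (log2 fold change 0.35) was the only member among them, with an adjusted p of 0.0284, short of 2-fold. The cause of these shifts was not tested. Over the 9 alternatives on all libraries the adjusted p of NEDD4L ranged from 0.0284 to 0.732. The sign of the log2 change turned for 5 members when 1 library was left out, none of them called. The values then ranged from -0.1014 to 0.2117 for ITCH, from -0.06409 to 0.4587 for SMURF1, from -0.1198 to 0.07857 for SMURF2, from -0.2626 to 0.01325 for WWP1 and from -0.2056 to 0.04705 for HECW2. SMURF2 also turned, to 0.01506, when no dox replicate 2 was left out. The difference in summed RPKM of the family, -0.675 for dox minus no dox, ranged from -1.985 to 0.6355 with 1 library left out. Depth limits HECW1 most, with 28 to 54 reads.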

Other observations

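The 19 HECT ligases outside the NEDD4 family were also measured, and all passed the filter on low counts. None was called by limma, edgeR or DESeq2, their median log2 change was 0.01, and 1, HERC2, had an unadjusted p under 0.05, which is 5.26% of the list against 9.28% of all genes tested. HERC2, a very large ligase of the DNA damage response, had few reads for its length, 72 and 62 without dox, against 76 and 72 with dox, and a log2 change of 0.57 (limma, SE 0.26, adjusted p = 0.526). UBE3B had 8.97 and 7.86 RPKM without dox, against 9.62 and 9.50 with dox, a log2 change of 0.22 (limma, SE 0.12, adjusted p = 0.619). HUWE1, which acts on MYC and p53, had 1.23 and 1.49 RPKM without dox, against 1.14 and 1.19 with dox, a log2 change of -0.18 (limma, SE 0.16, adjusted p = 0.768). HECTD3 had 4.03 and 4.52 RPKM without dox, against 3.28 and 4.24 with dox, with a log2 change of -0.16 (limma, SE 0.17, adjusted p = 0.827), and its groups overlapped.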
